A study of Mus musculus with 6 samples.

Results

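Markers of germ cells were examined in cultured Sertoli cells, the somatic cells that line the seminiferous tubules and nurse the germ cells. The 40 markers were chosen by name: every probe whose deposited symbol was a listed marker, or an older name of one, was taken. They comprised 15 markers of spermatogonia, 15 of spermatocytes and 10 of spermatids. A probe was found for 39 of the 40 genes, which gave 74 of the 45281 probes on the array. Prm2 matched no probe. Older names stood for Lin28a (LIN28), Dmc1 (DMC1H), 1 probe of Akap4 (FSC1) and, as RIKEN clone names, for Sohlh2, Hormad1, Mael, Meiob and Sycp2.

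The cells came from 3 week-old C57BL/6J mice with 2 copies of Ctnnb1(tm1Mmt), an allele that yields a dominant-stable form of CTNNB1 (β-catenin) once Cre recombinase has acted on it. Both groups carried that genotype. There were 3 RNA samples from cells infected for 24 h with an adenovirus for Cre (Ad-Cre) and 3 from cells infected for 24 h with an adenovirus for eGFP (Ad-eGFP), at an MOI of about 50. Tubules of several testes were pooled before digestion, and no sort of the dispersed cells is described. An adenovirus brings Cre into any cell that it infects, so germ cells in the dish could be infected too. Cells without a floxed allele were not given Ad-Cre here, so effects of the recombined allele and of Cre itself cannot be told apart. The sources do not say whether separate cultures gave the 3 RNA samples of each virus, so the p-values may measure technical spread only.

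Spermatogenesis begins with spermatogonia, mitotic cells on the basement membrane that include the stem cells. Their daughters become spermatocytes, which pair and recombine their chromosomes in meiosis, and then haploid spermatids, which build the acrosome and the tail and replace histones with transition proteins and protamines. Germ cells sit in pockets of the Sertoli cell membrane, and preparations of Sertoli cells often carry some of them along. Germ cell transcripts in such a culture therefore bear on which stages were represented in the dish and on whether they differed between the 2 viruses.

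The label was first set against markers of Sertoli cells. All 15 Sertoli cell genes had a probe that passed the detection filter, which asked that 3 or more of the 6 arrays detect it at p under 0.05. They included Sox9, a transcription factor that sets Sertoli cell fate, Cldn11, a tight junction gene, and Clu, which encodes a secreted chaperone, all detected on every array. The arrays were alike in depth of detection: between 20288 and 20901 probes were detected on each array, and the median raw intensity lay between 129 and 137. Log2 values of 2 arrays correlated at 0.992 to 0.996 within a treatment and at 0.984 to 0.986 between treatments, over the probes that passed the filter.

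Germ cell transcripts were detected in the culture. Of the 74 marker probes, 41 passed the filter (55.4%), against 46.1% of all probes on the array, and 35 were detected on all 6 arrays, where 40.4% of all probes were. No array detected 29 of them, against 48% of all probes that no array detected, and 1 or 2 arrays detected the remaining 4. The 41 probes belonged to 26 genes. Between 37 and 43 of the marker probes were detected on each array, with 41, 43 and 37 on Ad-Cre arrays 1 to 3 and 38, 38 and 42 on Ad-eGFP arrays 1 to 3. These numbers overlapped between the treatments.

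Detection ran through all stages but was not complete in any. Of the spermatogonial probes, 11 of 25 passed (44%), representing 8 of 15 genes. Of the spermatocyte probes, 15 of 24 passed (62.5%), representing 11 of 15 genes. Of the spermatid probes, 15 of 25 passed (60%), representing 7 of the 9 genes with a probe. Without Crem and Odf2, which somatic cells also make, 6 of 13 spermatid probes passed (46.2%), against 46.1% of all probes. Leaving out the 6 genes listed here as also made by somatic cells, 29 of the 56 probes over all stages passed (51.8%). The plot of detection by stage gives the full split.

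**Figure D1:**
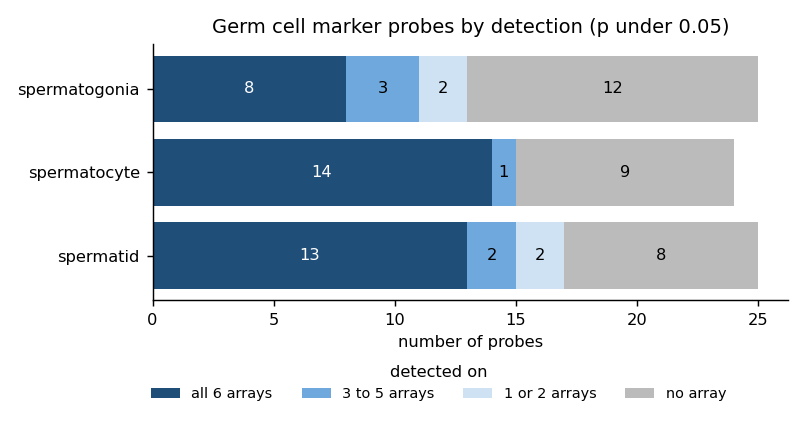
Number of germ cell marker probes in each stage, split by the number of arrays on which the detection p-value was under 0.05. The x axis counts probes. All 6 arrays detected 8 spermatogonial, 14 spermatocyte and 13 spermatid probes, and no array detected 12, 9 and 8.

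No array detected any probe of 12 genes. Among spermatogonial markers these were Zbtb16 and Nanos3, regulators of undifferentiated spermatogonia, Neurog3, a transcription factor of the early progenitors, Dppa3, a gene of pluripotent and primordial germ cells, Sohlh2, the partner of Sohlh1, and Stra8, which retinoic acid induces before meiosis. Among spermatocyte markers they were Dmc1, a meiotic recombinase, Hormad1 and Sycp3, components of the chromosome axis, and Mael, a gene of the piRNA pathway. Among spermatid markers they were Tnp2 and Prm1, the genes of a transition protein and a protamine. Lin28a, an RNA-binding protein of undifferentiated cells, was detected by 1 of its 3 probes on 1 Ad-Cre array only. Beside tested probes, Sall4, Kit, Ddx4, Spo11, Sycp1, Sycp2, Tdrd1, Crem and Akap4 each had at least 1 probe that no array detected. An undetected probe says only that its signal was not above the negative-control beads. The probe sequences were not used here, so which transcript of a gene each probe matches was not tested.

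Promoters of the markers were read from RefSeq (GRCm38.p6), as the 250 bases before the annotated start, for the 29 markers in that table. The E-box CACGTG, the core recognized by many basic helix-loop-helix factors, reads the same on both strands and was present in 8 of the 29 (27.6%), against 6.86% of the 27025 genes in the table. The 8 were Ddx4, Hormad1, Mael, Piwil1, Sohlh1, Sycp1, Sycp3 and Tdrd1. The letters TCCCGCC, known from sites of E2F factors, were present on either strand in 4 of the 29 (13.8%), against 11% of all genes, and the CRE letters TGACGTCA in 0 of the 29, against 1.77%. Matches of different motifs overlapped in 0 of these promoters. Promoters of 4 of the 8 genes are printed 5′ to 3′ on the gene's strand with the E-box in capitals, because their readouts on the array cover each case: Sohlh1 fell with Ad-Cre, Sycp1 rose, Piwil1 was detected on all arrays and passed no test, and Hormad1 was not detected. The windows are chr2:25847249-25847498 on the minus strand for Sohlh1, chr3:102936101-102936350 on the minus strand for Sycp1, chr5:128735996-128736245 on the plus strand for Piwil1 and chr3:95559427-95559676 on the plus strand for Hormad1.
Sohlh1: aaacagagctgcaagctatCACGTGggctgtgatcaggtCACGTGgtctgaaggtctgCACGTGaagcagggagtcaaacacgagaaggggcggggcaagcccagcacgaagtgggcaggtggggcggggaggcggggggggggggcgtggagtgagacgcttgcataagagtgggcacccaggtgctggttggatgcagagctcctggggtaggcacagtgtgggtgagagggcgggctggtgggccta
Sycp1: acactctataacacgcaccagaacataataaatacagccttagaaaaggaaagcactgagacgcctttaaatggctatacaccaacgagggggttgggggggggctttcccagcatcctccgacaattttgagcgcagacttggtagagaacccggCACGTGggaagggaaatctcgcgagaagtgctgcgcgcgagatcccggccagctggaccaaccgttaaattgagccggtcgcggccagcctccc
Piwil1: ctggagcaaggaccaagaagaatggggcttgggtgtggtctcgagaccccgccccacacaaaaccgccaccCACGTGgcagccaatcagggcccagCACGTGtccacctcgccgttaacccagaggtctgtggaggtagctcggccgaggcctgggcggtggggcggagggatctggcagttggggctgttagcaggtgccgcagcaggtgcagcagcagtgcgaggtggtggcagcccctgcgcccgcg
Hormad1: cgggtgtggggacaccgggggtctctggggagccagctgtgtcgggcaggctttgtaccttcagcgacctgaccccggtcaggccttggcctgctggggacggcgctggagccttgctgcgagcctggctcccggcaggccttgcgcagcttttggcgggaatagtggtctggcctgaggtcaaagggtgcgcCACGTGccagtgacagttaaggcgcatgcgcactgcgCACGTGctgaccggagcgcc
The capitals mark 3 E-boxes before Sohlh1, 1 before Sycp1, 2 before Piwil1 and 2 before Hormad1. A match describes the letters only.

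Between the treatments, a few spermatogonial markers were lower with Ad-Cre while nearly all markers of later stages passed no test. Of the 41 marker probes, 6 had an adjusted p under 0.05 (limma, Benjamini-Hochberg over all 20855 tested probes), which is 14.6% against 22.9% of all tested probes (4774). There were 5 lower probes, of Sohlh1, Dazl, Sall4 and Pou5f1, and 1 higher probe, of Sycp1. Over all tested probes 12.2% were lower and 10.7% higher. At an unadjusted p under 0.05 there were 11 marker probes and 7634 probes in all. The values of all 3 Ad-Cre arrays lay above all 3 Ad-eGFP arrays for 6 marker probes and below them for 6. That is the case for 20.4% and 21.6% of all tested probes, and 29 of the 41 marker probes overlapped. In bulk RNA of a culture, fewer germ cells and less RNA per germ cell cannot be told apart.

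**Figure D2:**
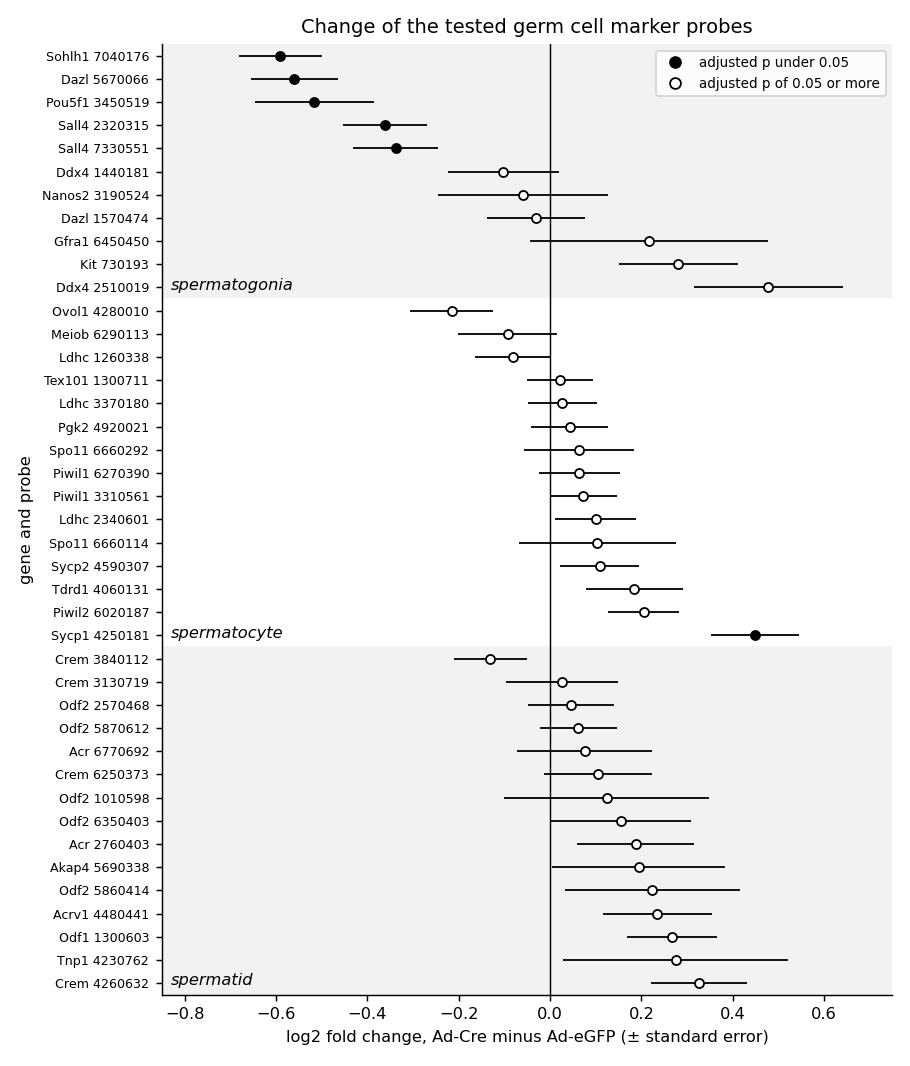
Log2 fold change (Ad-Cre minus Ad-eGFP) of the 41 tested marker probes, sorted within each stage; bars are standard errors from limma, and filled points have an adjusted p under 0.05. All 5 filled points left of 0 are spermatogonial markers, and 14 of the 15 spermatid probes lie right of 0 without passing the test.

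Spermatogonial markers held all of the lower calls. Of their 11 tested probes, 5 fell (45.5%, against 12.2% of all tested probes), 0 rose and 6 did not pass the test. Their median log2 fold change was -0.10, against 0.00064 over all tested probes. Leaving out Ad-Cre array 2, Ad-eGFP array 2 or Ad-eGFP array 3 left 2 lower probes in each case, and over all alternatives the lower probes numbered 2 to 5 and the median ran from -0.24 (Ad-Cre array 1 left out) to -0.03 (no filter). The filter can pass a probe through the treatment where it is high, so this count describes the tested probes and not all 25. The 5 include 2 probes of Sall4. They also include the probe of Pou5f1, which was detected on 1 Ad-Cre array and 3 Ad-eGFP arrays. With a detection p under 0.01 required on all 6 arrays, that probe was not tested and 4 of 8 spermatogonial probes fell. In that fit 4883 of all probes passed, 46.7% of them higher.

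Sohlh1, whose product SOHLH1 is a transcription factor that starts the differentiation of spermatogonia, showed the largest fall. Its log2 intensity was 8.25, 8.37 and 8.50 on Ad-Cre arrays 1 to 3 and 9.02, 9.01 and 8.87 on Ad-eGFP arrays 1 to 3. The Ad-Cre arrays were all lower, and the groups were well apart. The difference was -0.59 (standard error 0.09, adjusted p = 0.00517 by limma), which is 1.51-fold lower with Ad-Cre. In the exact permutation test of 3 against 3 arrays the two-sided p was 0.1, the smallest that this design allows, as it was for each probe whose groups did not overlap.

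Dazl, which encodes the RNA-binding protein DAZL needed by germ cells, was measured by 2 tested probes that differed. Probe 1570474 read 11.29, 11.19 and 11.57 on the Ad-Cre arrays and 11.36, 11.39 and 11.40 on the Ad-eGFP arrays, on the log2 scale. These groups overlapped, with a difference of -0.03 (95% interval -0.28 to 0.22, adjusted p = 0.863 by limma). Probe 5670066 read 6.37, 6.30 and 6.11 with Ad-Cre and 6.84, 6.89 and 6.72 with Ad-eGFP. All Ad-Cre arrays were lower here, by 0.56 on average (difference -0.56, standard error 0.09, adjusted p = 0.00726 by limma). The fall in Dazl therefore rests on 1 of its 2 probes.

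Sall4, which encodes SALL4, a zinc finger transcription factor of undifferentiated spermatogonia, was lower on both of its tested probes, and its remaining probe was not detected. Probe 2320315 read 7.80, 7.86 and 8.02 with Ad-Cre and 8.25, 8.35 and 8.15 with Ad-eGFP (difference -0.36, standard error 0.09, adjusted p = 0.0296 by limma). Probe 7330551 read 6.68, 6.56 and 6.83 with Ad-Cre and 6.97, 7.12 and 6.99 with Ad-eGFP (difference -0.34, standard error 0.09, adjusted p = 0.0398 by limma). The groups did not overlap on either probe, although the gap between the nearest arrays was narrow.

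Pou5f1, the pluripotency factor OCT4, stood close to background. Probe 3450519 was detected on all 3 Ad-eGFP arrays, at 5.77, 5.88 and 6.08, and on 1 Ad-Cre array, with readings of 5.63, 5.27 and 5.28. The lowest signals of detected probes were 5.39 to 5.47 on the 6 arrays, so 2 of the 3 Ad-Cre readings were below what could be detected. The fitted difference was -0.52 (standard error 0.13, adjusted p = 0.0292 by limma), but its size rests on those readings: it was -0.17 without background correction and -0.09 with a larger offset, and passed in neither. The probe met the filter mainly through the treatment where it was high, so its call adds little to the count of lower probes. The other probe of the gene was detected on 2 Ad-eGFP arrays and no Ad-Cre array, and was not tested.

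**Figure D3:**
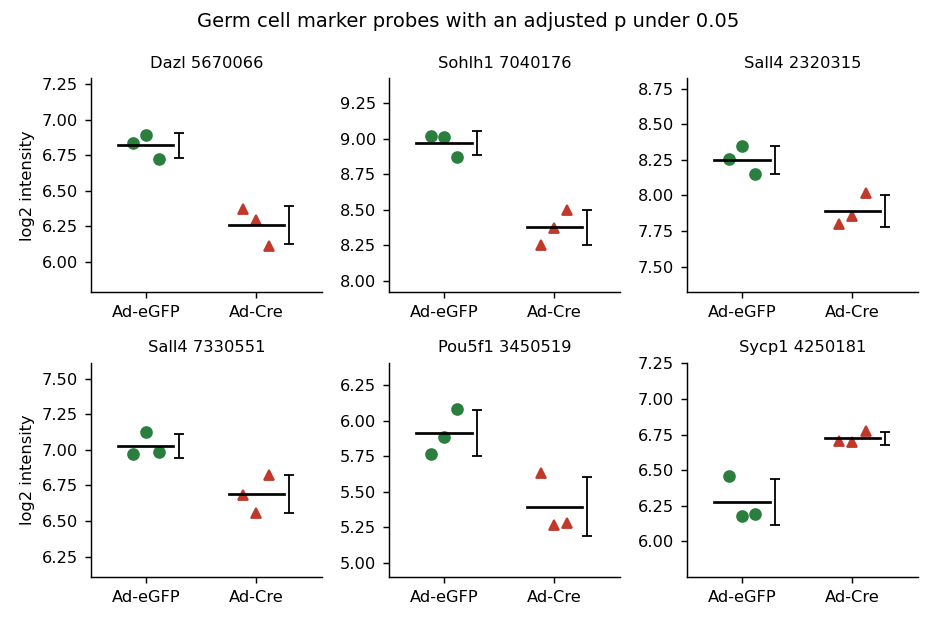
Log2 intensity of the 6 marker probes with an adjusted p under 0.05, each point 1 array, with the mean as a line and the SD of 3 arrays as a bar; every panel spans the same range of log2 units. The groups do not overlap in any panel, with Ad-Cre below Ad-eGFP for the 5 spermatogonial probes and above it for Sycp1.

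The calls differed in how firmly they held. Sohlh1 and Dazl probe 5670066 passed under all 14 alternative settings, although a larger offset, which compresses dim probes, shrank their differences to -0.37 and -0.16. Sall4 probe 2320315 passed under 7 of 14, Sall4 probe 7330551 under 4 of 14 and Pou5f1 under 5 of the 13 that tested it, each with the same direction throughout. The larger offset gave -0.19 and -0.11 for the Sall4 probes.

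The remaining spermatogonial probes did not pass the test, and not all of them pointed the same way. Ddx4, the germ cell RNA helicase also called VASA, read 6.89, 6.93 and 7.33 with Ad-Cre and 6.66, 6.29 and 6.76 with Ad-eGFP on probe 2510019 (difference 0.48, 95% interval 0.10 to 0.86, adjusted p = 0.0745 by limma). It passed under 2 of 14 alternatives. On probe 1440181 of the same gene the difference was -0.10 (95% interval -0.39 to 0.18), and the groups overlapped. Kit, the receptor of differentiating spermatogonia for the Sertoli cell factor KITL, gave 7.78, 7.92 and 7.95 with Ad-Cre and 7.77, 7.73 and 7.32 with Ad-eGFP (difference 0.28, adjusted p = 0.167 by limma). On this, its only tested probe, the lowest Ad-Cre array was just above the highest Ad-eGFP array. Kit is also made by somatic cells of the testis.

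Gfra1 and Nanos2, both genes of stem spermatogonia, were near the limit of detection. Gfra1, the GDNF co-receptor, was detected on 2 Ad-Cre arrays and 1 Ad-eGFP array. Nanos2, an RNA-binding repressor of differentiation, was detected on 3 Ad-Cre arrays and 2 Ad-eGFP arrays. Their differences were 0.22 (95% interval -0.39 to 0.83) and -0.06 (95% interval -0.50 to 0.38). These intervals leave room for a change in either direction.

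Of the 15 tested probes of spermatocyte markers, 14 did not pass the test. Their median log2 fold change was 0.06 (0.03 to 0.10 under the alternative settings). There were 12 differences above 0 and 3 below, where 50.1% of all tested probes were above 0. One probe rose (6.67%, against 10.7% of all tested probes) and 0 fell.

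The probe that rose was Sycp1 4250181. The gene encodes the transverse filament of the synaptonemal complex, which joins paired chromosomes. The probe read 6.70, 6.70 and 6.78 with Ad-Cre and 6.46, 6.18 and 6.19 with Ad-eGFP, so all Ad-Cre arrays were higher. The difference was 0.45 (standard error 0.10, adjusted p = 0.0168 by limma), or 1.36-fold. With a larger offset the difference shrank to 0.12. It passed under 11 of 14 alternatives. The call was lost with an ordinary t-test (adjusted p = 0.0561), without Ad-eGFP replicate 2 (difference 0.40, adjusted p = 0.0614) and without Ad-eGFP replicate 3 (difference 0.41, adjusted p = 0.0670). A further probe of Sycp1 was not detected on any array.

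Other genes of meiotic recombination and of the chromosome axis did not pass. Spo11, which makes the meiotic double-strand breaks, read 11.07, 10.91 and 11.37 with Ad-Cre and 11.12, 11.02 and 11.02 with Ad-eGFP on probe 6660292 (difference 0.06, 95% interval -0.22 to 0.35). A dim Spo11 probe, 6660114, was detected on 3 arrays and had a difference of 0.10 (95% interval -0.30 to 0.51). Sycp2, a component of the lateral elements, differed by 0.11 (95% interval -0.09 to 0.31), and Meiob, a single-strand DNA-binding protein of recombination, by -0.09 (95% interval -0.35 to 0.16).

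Enzymes and surface proteins of spermatocytes gave some of the narrowest intervals. Ldhc, which encodes LDHC, the lactate dehydrogenase of germ cells, was detected on all arrays by 3 probes. Probe 3370180 read 15.51, 15.48 and 15.59 with Ad-Cre and 15.58, 15.47 and 15.45 with Ad-eGFP. The groups overlapped, and the difference was 0.03 (95% interval -0.15 to 0.20). The other 2 Ldhc probes differed by 0.10 (95% interval -0.11 to 0.31) and -0.08 (95% interval -0.28 to 0.11). Pgk2, a phosphoglycerate kinase that replaces the X-linked enzyme in meiosis, differed by 0.04 (95% interval -0.15 to 0.24). Tex101, a GPI-anchored surface protein of germ cells, differed by 0.02 (95% interval -0.15 to 0.19). Ovol1, a zinc finger factor of pachytene cells that epithelia also make, read 7.74, 7.92 and 7.98 with Ad-Cre and 8.03, 8.18 and 8.08 with Ad-eGFP (difference -0.21, adjusted p = 0.133 by limma).

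The piRNA pathway protects the germ line from transposons with small RNAs bound to PIWI proteins. Piwil1 (MIWI), whose promoter is printed above, read 12.86, 12.95 and 12.84 with Ad-Cre and 12.78, 12.78 and 12.87 with Ad-eGFP on probe 3310561 (difference 0.07, 95% interval -0.10 to 0.24). Its other probe differed by 0.06 (95% interval -0.14 to 0.27). Piwil2 (MILI) was above Ad-eGFP on all 3 Ad-Cre arrays, at 10.30, 10.27 and 10.16 against 10.11, 9.97 and 10.04 (difference 0.20, 95% interval 0.02 to 0.39, adjusted p = 0.105 by limma). Tdrd1, a Tudor protein that binds PIWI proteins, differed by 0.19 (95% interval -0.06 to 0.43) on its only tested probe. None of the 4 tested probes of the pathway passed, against 22.9% of all tested probes. At an unadjusted p under 0.05 there was 1, where 7634 of the 20855 probes in all were. All 4 differences were above 0, against 50.1% of all tested probes. Piwil2 passed under 4 of 14 alternatives: without background correction, with array weights, with a larger offset and without Ad-Cre replicate 3 (adjusted p of 0.0311 to 0.0477).

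For the spermatid markers, 0 of the 15 tested probes passed (limma), against 22.9% of all tested probes. At an unadjusted p under 0.05 there were 2, where 7634 of the 20855 probes in all were. Without Ad-Cre replicate 3, 4 of the 15 spermatid probes rose. In that fit 5646 of all probes passed, 48.7% of them higher, against 4774 with all arrays, 46.7% of them higher. Of the 15 differences 14 were above 0, against 50.1% of all tested probes, but the 14 include Tnp1, which entered the test through the Ad-Cre arrays. The median of the 15 was 0.16 (0.05 to 0.17 under the alternative settings). The median deviation of the 15 probes from the Ad-eGFP mean was 0.11, 0.17 and 0.16 on Ad-Cre arrays 1 to 3 and -0.05, -0.0026 and 0.05 on Ad-eGFP arrays 1 to 3. The probes include 5 of Odf2 and 4 of Crem, so they are not independent of each other. No difference between stages was tested, since markers are not replicates of a treatment.

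Acrosome genes of spermatids were detected on every array. Acr, the acrosomal protease acrosin, read 10.66, 10.45 and 10.15 with Ad-Cre and 10.26, 10.22 and 10.22 with Ad-eGFP on probe 2760403 (difference 0.19, 95% interval -0.11 to 0.49). Ad-Cre array 3 lay below the Ad-eGFP arrays and the other Ad-Cre arrays above them. Without Ad-Cre replicate 3 the difference was 0.32 and passed (adjusted p = 0.0363 by limma). Acr probe 6770692 differed by 0.08 (95% interval -0.27 to 0.42), and Acrv1, a protein of the acrosomal matrix, by 0.24 (95% interval -0.05 to 0.52).

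Tail genes followed a similar range. Odf1, a main protein of the outer dense fibers, read 8.76, 8.54 and 8.49 with Ad-Cre and 8.43, 8.33 and 8.23 with Ad-eGFP (difference 0.27, 95% interval 0.03 to 0.50, adjusted p = 0.0962 by limma). Every Ad-Cre array was higher, by a small margin. Odf2, which somatic cells use at centrioles as well, had 5 tested probes with differences of 0.05 to 0.22. Both 5860414 and 1010598 passed without Ad-Cre replicate 3, with differences of 0.44 (adjusted p = 0.0395 by limma) and 0.40 (adjusted p = 0.0285 by limma). Akap4, the anchoring protein of the fibrous sheath, differed by 0.19 (95% interval -0.25 to 0.64) on 5690338, its only tested probe. On that probe 1 Ad-Cre array at 6.70 stood apart from the other 5, which read 5.95 to 6.08.

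The late chromatin genes were at or below the limit of detection. Tnp1, the gene of a transition protein, was detected on 3 Ad-Cre arrays and 1 Ad-eGFP array, with 5.82, 5.46 and 5.86 against 5.07, 5.22 and 6.02. The groups overlapped, and the 95% interval of the difference ran from -0.30 to 0.85.

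Crem, a transcription factor that switches on many spermatid genes and is also made by somatic cells, had 4 tested probes that did not share a direction. Probe 4260632 read 6.97, 6.70 and 6.66 with Ad-Cre and 6.34, 6.51 and 6.50 with Ad-eGFP (difference 0.33, 95% interval 0.08 to 0.57, adjusted p = 0.0643 by limma). It passed under 3 of 14 alternatives: with the stricter detection filter (adjusted p = 0.0420), with array weights (adjusted p = 0.0373) and without Ad-Cre replicate 3 (adjusted p = 0.0461). The other Crem probes differed by 0.03, -0.13 and 0.10, with groups that overlapped. Of the 9 genes with more than 1 tested probe, Crem, Ddx4 and Ldhc had differences of both signs.

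Some of the markers were listed here as also made by somatic cells, and none of the 6 called probes belonged to a listed gene. The list does not show that the other markers are absent from somatic cells. Of the 12 tested probes of Gfra1, Kit, Ovol1, Odf2 and Crem, which somatic cells are known to make, 0 passed (limma). At an unadjusted p under 0.05 there were 2, where 7634 of the 20855 probes in all were. Of the other 29 tested probes 6 passed (20.7%, against 22.9% of all).

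Markers of the other cells that the dish could hold were read in the same fit. Sertoli cell markers fell on 11 of 17 tested probes (64.7%, against 12.2% of all tested probes) and rose on 0, with a median of -0.49. The 11 include Amh, detected on 1 Ad-Cre array and all 3 Ad-eGFP arrays, which met the filter through the treatment where it was high. Fshr, the receptor for follicle-stimulating hormone, differed by -1.46 on probe 1940424 (standard error 0.10, adjusted p = 3.27e-04 by limma). Its other tested probe, 6040767, differed by -1.25 (standard error 0.12, adjusted p = 7.66e-04 by limma). Under the alternative settings the 2 Fshr differences shrank to as little as -0.67 and -0.50. Rhox8, a homeobox gene of Sertoli cells, differed by -1.80 (standard error 0.11, adjusted p = 1.86e-04 by limma). Of the 17 differences 14 were below 0. The 3 above 0 were those of Cldn11 (0.13), Kitl (0.13) and Trf (0.06), which did not pass. Cldn11 and Clu, which differed by -0.38, were the most intense of these probes. The summed normalized signal of the tested Sertoli cell probes was 129208, 125884 and 120960 on the Ad-Cre arrays. On the Ad-eGFP arrays it was 148903, 149221 and 155270. The summed signal of the spermatogonial markers, led by Dazl probe 1570474, was 4105, 3970 and 4678 against 4590, 4572 and 4492, and these overlapped. The part of the Sertoli cell change in the lower spermatogonial markers was not tested.

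Peritubular myoid markers, led by Acta2, passed on 0 of 9 tested probes, against 22.9% of all, with a median of 0.17. At an unadjusted p under 0.05 there were 4, where 7634 of the 20855 probes in all were. Without Ad-Cre replicate 3, 4 of the 9 rose and the median was 0.32, and 4 also rose with array weights, without background correction and with a larger offset. Over all probes, 5646, 7082, 5796 and 5696 passed under these settings, in that order, against 4774 in the main fit. Of these, 48.1% to 48.7% were higher, against 46.7% in the main fit. Among macrophage markers 1 of 9 rose and 1 fell, close to the 10.7% and 12.2% of all tested probes. The probe that rose, of Csf1r, the receptor that macrophages depend on, was detected on all 3 Ad-Cre arrays and on no Ad-eGFP array, so it entered the test only through the treatment where it was high and no fold is given. The probe that fell was Lyz2 830240, for the lysozyme of macrophages, which was detected on all arrays and differed by -0.35 (standard error 0.09, adjusted p = 0.0276 by limma, passing under 8 of 14 alternatives). Of the 9 probes 7 had a difference below 0, with a median of -0.05. Of Leydig cell markers, 1 of 4 tested probes rose (10.7% of all tested probes did) and the other 3 differences were below 0, with a median of -0.19. The 2 tested probes of Cyp11a1, the enzyme that starts steroid synthesis, opposed each other: 4250735 rose by 0.53 (adjusted p = 0.0263 by limma, passing under 8 of 14 alternatives), and 6580341 differed by -0.28 with all Ad-Cre arrays below (adjusted p = 0.0923 by limma). Cyp17a1, Hsd3b1, Hsd3b6, Insl3 and Lhcgr were not detected. Of endothelial markers, Pecam1 and Cdh5 were tested and did not pass. The part of these cells in the germ cell values was not tested.

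Further germ cell genes, from lists that did not include the 40 markers, were read in the same fit. Of 15 tested probes of other spermatogonial genes, 2 rose and 2 fell (10.7% and 12.2% of all tested probes did), with a median of -0.03. Nanos1, an RNA-binding protein related to Nanos2, differed by 0.78 (standard error 0.08, adjusted p = 0.00138 by limma), Tex13b, deposited under the older name TEX13, by -0.66 (standard error 0.10, adjusted p = 0.00426 by limma) and Id4, an inhibitor of differentiation in stem spermatogonia, by 0.47 (standard error 0.11, adjusted p = 0.0205 by limma, passing under 10 of 14 alternatives) on 1 of its 2 tested probes. Under the alternative settings these differences shrank to as little as 0.26 for Nanos1, -0.33 for Tex13b and 0.21 for Id4. The called probes of this list thus lay on both sides of 0.

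Of 22 tested probes of other spermatocyte genes, 2 rose and 1 fell, which is no larger a share than the 10.7% and 12.2% of all tested probes, with a median of -0.04. Syce1, which encodes a central element protein of the synaptonemal complex, differed by 0.45 (standard error 0.12, adjusted p = 0.0329 by limma). Msh5, a meiotic mismatch repair homolog, differed by 0.39 on 1 of its 3 tested probes (adjusted p = 0.0343 by limma). Syce1 passed under 8 of 14 alternatives and this Msh5 probe under 4 of 14, with a difference down to 0.10. Tex14, which keeps the bridges between germ cells open, differed by -0.44 (standard error 0.08, adjusted p = 0.00754 by limma). Hspa2, the heat shock protein of spermatocytes, differed by 0.06 and -0.02 on its 2 probes and did not pass.

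Of 32 tested probes of other spermatid genes, 7 rose (21.9%, against 10.7% of all tested probes) and 0 fell, and their median was 0.19. Zpbp2, an acrosomal protein, rose on both probes, by 0.51 (standard error 0.08, adjusted p = 0.00699 by limma) and 0.30 (standard error 0.08, adjusted p = 0.0393 by limma). The first passed under all 14 alternatives and the second under 4 of 14. Gapdhs, the glycolytic enzyme of the sperm tail, differed by 0.50 (standard error 0.08, adjusted p = 0.00656 by limma) on 1 of its 2 probes. Hils1, a linker histone of spermatids, differed by 0.44 (standard error 0.09, adjusted p = 0.0118 by limma). Under the alternative settings the Gapdhs and Hils1 differences shrank to as little as 0.17 each, and that of the first Zpbp2 probe to 0.29. Of the 32 probes, 27 differences were above 0, against 50.1% of all tested probes. On 12 of the 32, all Ad-Cre arrays were above all Ad-eGFP arrays, against 20.4% of all tested probes. Both counts include 1 probe of Acrbp, 2470438, which was detected on 3 Ad-Cre arrays and no Ad-eGFP array and so entered the test only through the treatment where it was high. Odf4, another tail gene, differed by -0.02, -0.01 and -0.09 on its 3 tested probes, and Catsper2, of the sperm calcium channel, by -0.0011. Under the alternative settings between 3 and 10 probes of this list rose and 0 fell. The median of the list ran from 0.06 (larger offset) to 0.20 (median scaling).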

How the data were processed

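Total RNA of 3 Ad-Cre and 3 Ad-eGFP samples was hybridized to Illumina mouse BeadChips (the methods name MouseRef-6, the table's header a WG platform), and groups came from the sample titles. The authors deposited raw probe intensities, neither normalized nor background-corrected, with a detection p-value for each probe on each array. Left unused were 12 columns with the SD and number of beads, and the table of the authors' own comparison (means, fold changes, t statistics and p-values). In R 4.3.3, limma 3.58.1 was run with neqc (negative-control level inferred from the detection p-values, offset 16, quantile normalization, log2), a filter (detection p-value under 0.05 on 3 or more of 6 arrays), lmFit and eBayes without covariates, two-sided, with Benjamini-Hochberg adjustment over 20855 probes. The number of arrays limits the precision. Intervals are at 95%.

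The markers and lists were chosen with earlier results of these data known. All 40 markers were named, and from other lists the 3 largest changes with an adjusted p under 0.05 and the 2 most intense genes, where given. Further genes of the cell type lists were named after their values were seen. Older names were used only if RefSeq gives them to a single gene. Names shared with another gene (LU, NOS2, NOS3, SCO1, TPX2, SCP2) were left out. Deviations of samples with the same replicate number correlated weakly (0.16, 0.06 and 0.04 for numbers 1 to 3). The sample titles do not say whether the numbers mark pairs, so the samples were not treated as pairs in the main fit. The analysis was tested on simulated data.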

Additional observations from a re-analysis of the deposited data

How the results depend on the processing

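None of the 6 germ cell marker probes that passed changed sign under any alternative run, while some marker probes that did not pass did. Leaving out 1 array moved the number of all probes with an adjusted p under 0.05 between 2472 and 5646 (4774 with all arrays). It was 2996 when Ad-Cre array 2 was left out and 2939, 2790 and 2472 when Ad-eGFP array 1, 2 or 3 was. The number of germ cell marker probes moved between 2 and 10 (6 with all arrays). It was 3 when Ad-Cre array 2 was left out, 10 for Ad-Cre array 3, and 2 for either Ad-eGFP array 2 or Ad-eGFP array 3. The 5 probes gained without Ad-Cre replicate 3 were those of Piwil2, Crem 4260632, Acr 2760403 and Odf2 5860414 and 1010598, and the cause was not tested. An ordinary t-test on these log2 values called 2 marker probes after Benjamini-Hochberg adjustment, and 3220 of all tested probes. At the methods' own thresholds of unadjusted p and fold change it called 1 marker probe, Sohlh1, and 1622 of all tested probes. The methods also name the EB (Wright and Simon) algorithm, which was not applied here. With the replicate number as a block, 4 marker probes and 4162 probes in all passed: Sall4 and Pou5f1 no longer did (adjusted p of 0.0606 to 0.0782) and Ddx4 2510019 did (adjusted p = 0.0359). The sample titles do not say whether the numbers pair the samples. Pou5f1 did not pass without background correction (adjusted p = 0.0629) or with a larger offset (adjusted p = 0.133). The number of detected marker probes lay between 35 and 45 under all detection rules and all arrays left out. Dim probes near the detection limit (Pou5f1, Gfra1, Nanos2, Tnp1) bound what could be seen there.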

Other observations

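Outside the rule for named genes, Dnd1, which encodes an RNA-binding protein of germ cells, was the remaining called probe of the other spermatogonial genes, and it was chosen after its values were seen. It differed by -0.47 (standard error 0.09, adjusted p = 0.00899 by limma). Among the other spermatid genes, the probes that rose and were not described above belonged to Spaca3, Smcp and Gsg1, also chosen after their values were seen. Spaca3, an acrosomal lysozyme-like protein, differed by 0.36 (adjusted p = 0.0300 by limma), Smcp, a protein of the sperm mitochondrial capsule, by 0.37 (adjusted p = 0.0379 by limma), and Gsg1 by 0.32 (adjusted p = 0.0381 by limma) on 1 of its 2 probes. They passed under 9, 6 and 4 of 14 alternatives. Tekt1, a tektin of the tail axoneme, differed by 0.20 and 0.23 on its 2 probes without passing the test (adjusted p = 0.0673 and 0.0766 by limma). These 2 probes passed under 5 and 4 of 14 alternatives. Uchl1, a ubiquitin hydrolase of spermatogonia, and Rhox13, a homeobox gene, differed by -0.14 and 0.00 and did not pass.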
